A study of Mus musculus with 38 samples.

Results

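Myriocin treatment was compared with empty carrier in the reperfused mouse heart at 24 h after ischemia, over 21 transcripts measured by qRT-PCR. The comparison took every mouse that the labels call MLAD at 24 h (7 mice) and every mouse they call LAD at 24 h (7 mice), 14 of the 38 mice of the series. The rule takes mice by label and takes all 21 assays, and uses no measured value. The 5 sham mice of 24 h are given as background, and the MLAD and LAD mice of 96 h enter where the time points are compared.

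All animals were male C57BL/6N mice, 8 to 10 weeks old. In the LAD group the left anterior descending coronary was occluded for 30 min and reopened, and empty solid lipid nanoparticles (SLN) were given. The MLAD group had the same occlusion, and 20 uL of SLN/myr, which are nanoparticles loaded with Myriocin from a stock of 1 mM, were injected as reperfusion began. The injection is intra-ventricular in the methods, and by the labels it went into left ventricular muscle. Sham mice had the surgery without the ligature. RNA came from the at-risk area, which the paper reports apart from the infarcted area, or from the matching tissue of sham hearts. Myriocin reached the treated hearts only with its carrier and after ischemia had ended, so these groups do not describe pretreatment or the free drug.

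Myriocin blocks serine palmitoyl transferase, the first enzyme of sphingolipid synthesis, and so lowers the supply of newly made ceramide, a lipid that accumulates in ischemic tissue. The healthy adult heart draws most of its energy from fatty acid oxidation, which needs uptake proteins at the cell surface, a cytosolic carrier, import into mitochondria by carnitine palmitoyl transferases and the dehydrogenases of beta-oxidation. Surplus fatty acids are stored in lipid droplets coated by perilipins, and the program is driven by the PPAR receptors with their coactivator PGC-1alpha and by TFEB, a regulator of lysosomal genes. The primer panel of the study covers these steps. It holds the myosin heavy chains MYH6 and MYH7, the adult and fetal motor proteins of the rodent ventricle, and the regulators PPARA, PPARG, PPARD, PPARGC1A, TFEB and SQSTM1. It also holds the uptake and transport genes VLDLR, CD36, SLC27A1, FABP3, CPT1A, CPT1B and UCP3, the enzymes ACADM, ACADL and LIPE, and the perilipins PLIN2, PLIN4 and PLIN5.

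The Ct values are listed under plate codes, A01 to A12 and B01 to B09. No table used here pairs a code with a gene of the panel, so the assays are described by code and no direction is given for any named gene, gene group or cell type marker. A reference reading, coded B10, stands below each target. It was taken to be RPLI, a ribosomal protein transcript and the only endogenous control named in the methods. Its primers are shown because each difference in relative expression contains the reading of this amplicon. Both are written 5′ to 3′ in lower case, with no base set in capitals, and each is 18 bases long.
RPLI forward: ctcggccgttctcctgta
RPLI reverse: gtggaagtggggcttcag

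For each assay and mouse, the target Ct was subtracted from the reference Ct listed with it to give relative expression. Ct is the cycle at which fluorescence crosses a threshold, so a higher relative expression stands for more target per reference, and a difference of 1 is 2-fold if every cycle doubles the product. Amplicons differ in efficiency, so levels were compared between groups and not between assays. Of 294 possible pairs of readings (21 assays in 14 mice) 231 were present, 117 of 147 in MLAD and 114 of 147 in LAD, and the other 63 were empty. An assay had 4 to 7 mice in each group, and 3 to 5 sham mice. Target Ct lay between 15.1 and 34.1 with a median of 28.0, and reference Ct lay between 21.4 and 27.8. The number of wells behind a Ct is not given in the sources used here, so the spread between mice is the only error available.

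Relative expression was higher in MLAD than in LAD at 24 h for assays A08, A03 and B02, each by close to 2-fold. These were 3 of 21 assays with an exact permutation p under 0.05, and the share called was 14.3%. The calls all went the same way, 3 higher and 0 lower, and the groups failed to overlap in the same 3 assays, again 14.3%. After Benjamini-Hochberg adjustment over the 21 assays A08 alone passed, which is 4.76%. Over all 21 assays the MLAD mean was higher in 14 and lower in 7, with a median difference of 0.19. Over the 18 assays that were not called the split was 11 to 7, with a median of 0.10. In bulk tissue, fewer cells of a type and less RNA per cell cannot be told apart. The count moved with the model. It was 4 with limma over the mice of all groups, where A08 was lost and A01 and A05 were added, and 5 when limma was given the replicate number as a block, where B01 and B05 were added. With another reference, the mean Ct of all targets or the mean reference Ct of the mouse, it was 1 each time, A03, and A08 and B02 were lost. Both means are taken by sample number, which may not stand for the same mouse in every assay. The count was also 1 with adjusted limma over all groups (A03) and with sign flips over same-numbered mice (A08), where too few pairs of A03 and B02 were present to reach 0.05. In limma over the 14 mice alone, a fit added after seeing the data, A08, A03 and B02 had adjusted p of 0.00432, 0.0122 and 0.0155. With the block their limma adjusted p was 0.0037, 0.0135 and 0.0135, but the block joins different mice that share only a number in the labels.

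**Figure D1:**
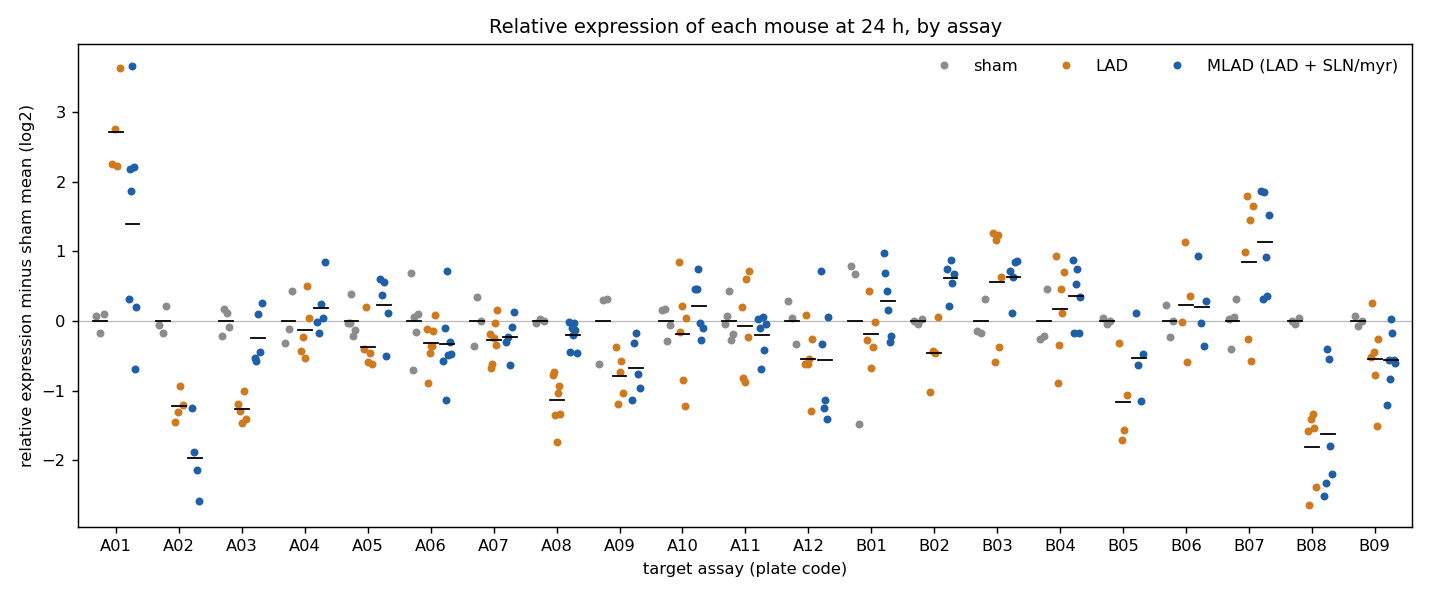
Relative expression of each mouse at 24 h minus the sham mean of the same assay (log2), with 1 point per mouse and a black line at the group mean, in sham, LAD and MLAD mice. LAD and MLAD points do not overlap in A03, A08 and B02, and they overlap in the other 18 assays.

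**Figure D2:**
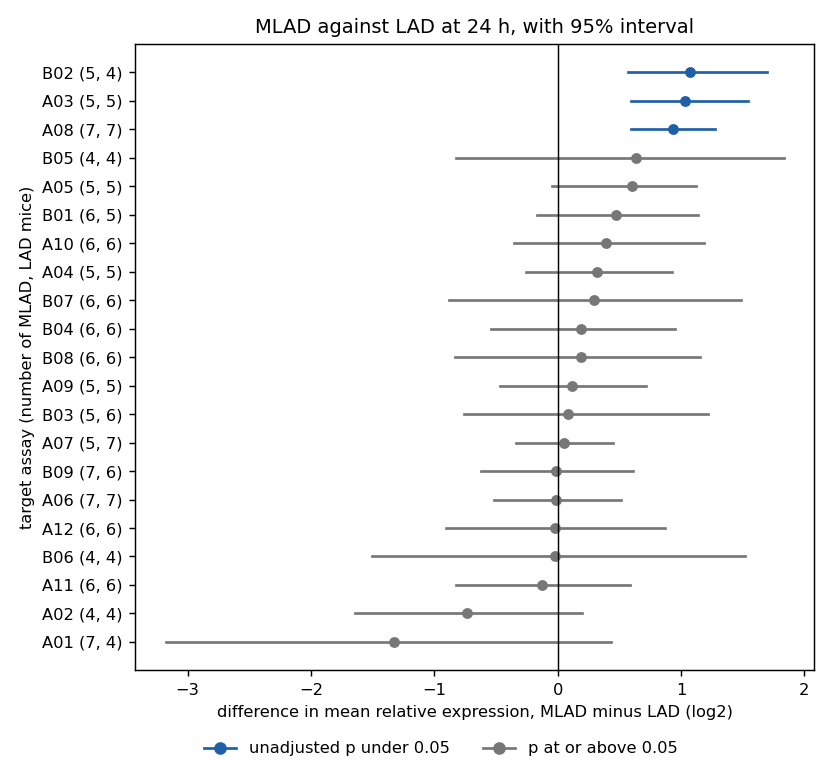
Difference in mean relative expression, MLAD minus LAD at 24 h (log2), for each assay with its 95% interval, ordered by size and with the number of MLAD and LAD mice in brackets. The intervals of B02, A03 and A08 lie above 0 and the other 18 hold 0.

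A08 was read in all 7 mice of both groups, one of 2 assays for which this was so. In LAD mice its relative expression ran from -3.02 through a median of -2.32 to -2.01, and in MLAD mice from -1.75 through -1.42 to -1.30. Every treated mouse was above every untreated one. The 3 sham mice had -1.32, -1.25 and -1.28, at the upper edge of the treated mice. The last of these sham values lies exactly midway between the others. The same holds for a sham value in each of A07, B05, B06, B08 and B09. Whether such values are separate readings is not known from the sources used here. The means were -2.41 ± 0.36 (SD, n = 7) in LAD and -1.48 ± 0.18 (SD, n = 7) in MLAD. The difference of 0.93 (95% interval 0.60 to 1.27) is 1.91-fold, with interval 1.51 to 2.42. Its exact permutation p of 0.000583 is the smallest that 7 against 7 mice can give, and the adjusted p was 0.0122. As a relative quantity, the linear level with the sham mean as 1, A08 stood at 0.469 ± 0.111 (SD, n = 7) in LAD and 0.878 ± 0.108 (SD, n = 7) in MLAD. With limma over the mice of all groups p was 0.100, in a fit that pools the spread with that of the 96 h mice, whereas over the 14 mice of 24 h alone limma gave 0.000206. With other references the call was lost while the difference stayed at 0.87 with the mean reference Ct of the mouse (exact permutation p = 0.164) and 0.77 with the mean Ct of all targets (exact permutation p = 0.221). Both references are means by sample number, so they may bring in readings of other mice.

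A03 was read in 5 mice of each group. LAD mice had -5.79, -5.89, -6.07, -5.61 and -6.01, and MLAD mice had -5.14, -5.18, -4.50, -5.05 and -4.35. The groups were separate, with the treated mice more widely spread. Sham values of -4.82, -4.43, -4.49 and -4.69 fell inside the range of the treated mice. The mean rose from -5.87 ± 0.18 (SD, n = 5) to -4.84 ± 0.39 (SD, n = 5), a difference of 1.03 (95% interval 0.59 to 1.54) or 2.04-fold. The exact permutation p of 0.00794 is the smallest possible with 5 against 5 mice, and the adjusted p was 0.0833. Relative quantity was 0.418 ± 0.0532 (SD, n = 5) in LAD and 0.874 ± 0.245 (SD, n = 5) in MLAD.

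B02 was read in 4 LAD and 5 MLAD mice. The untreated mice had -5.64, -5.05, -5.07 and -4.57, and the treated mice -3.88, -4.40, -3.74, -4.08 and -3.94. Here too no treated mouse was as low as an untreated one. In contrast to A08 and A03, all treated mice were also above the sham mice, which had -4.62, -4.66 and -4.59. Means were -5.08 ± 0.44 (SD, n = 4) in LAD and -4.01 ± 0.25 (SD, n = 5) in MLAD. They differed by 1.07 (95% interval 0.57 to 1.70) or 2.11-fold, with an exact permutation p of 0.0159, the smallest that 5 against 4 mice allow, and an adjusted p of 0.111. With other references, which are means by sample number and may join different mice, the call was lost and the difference was smaller. It was 0.32 with the mean reference Ct of the mouse (exact permutation p = 0.222) and 0.05 with the mean Ct of all targets (exact permutation p = 0.921). Relative to B03 and B04 at identical reference readings, B02 was higher in treated mice by 1.04 and 0.82. The exact permutation p was 0.0571 and 0.171, with 3 or 4 readings per group, where 0.0571 was the smallest possible. Relative quantity was 0.751 ± 0.222 (SD, n = 4) in LAD and 1.55 ± 0.256 (SD, n = 5) in MLAD.

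The position of sham was compared as a value only, because LAD and MLAD share the same sham mice. The LAD mean was below the sham mean in 16 assays and above it in 5, while the MLAD mean was below in 11 and above in 10.

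The next assays by size had higher MLAD means that did not pass the test. B05 had -2.82, -4.22, -4.06 and -3.57 in LAD and -2.38, -3.13, -3.65 and -2.98 in MLAD. The groups overlapped, and 1 treated mouse was above all untreated mice. The difference was 0.63 (95% interval -0.82 to 1.83, exact permutation p = 0.2), and the 3 sham mice had -2.46, -2.55 and -2.5. In the blocked limma fit the difference was the same 0.63 and passed 0.05 before adjustment, with an adjusted p of 0.116. A05 had -1.81, -1.22, -2.0, -1.87 and -2.03 in LAD and -0.81, -1.04, -0.85, -1.92 and -1.30 in MLAD. Here 3 of 5 treated mice were above every untreated mouse and 1 lay among the lower untreated values. The means differed by 0.60 (95% interval -0.04 to 1.12), with an exact permutation p of 0.0635 and an adjusted p of 0.333. The call hung on single mice, since p was 0.0476 without LAD replicate 4 and 0.0317 without MLAD replicate 6 in the same exact permutation test. B01 had -6.64, -5.94, -7.05, -6.74 and -6.38 in LAD, and -6.68 through a median of -6.07 to -5.40 in MLAD. With 3 of 6 treated mice above all untreated ones, the difference was 0.47 (95% interval -0.17 to 1.14, exact permutation p = 0.126). The block brought it to 0.57 with a limma p of 0.0492 and an adjusted p of 0.204.

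Smaller positive differences followed in A10, A04 and B07. A10 ran from -5.12 through -3.96 to -3.06 in 6 LAD mice and from -4.17 through -3.69 to -3.15 in 6 MLAD mice, so that all treated mice lay inside the untreated range. The difference was 0.40 (95% interval -0.35 to 1.18, exact permutation p = 0.284). A04 had -1.37, -1.17, -1.48, -0.45 and -0.91 in LAD against -0.96, -1.12, -0.70, -0.90 and -0.10 in MLAD. These overlapped apart from 1 treated mouse above all untreated ones, and differed by 0.32 (95% interval -0.26 to 0.92, exact permutation p = 0.262). B07, among the later-crossing targets, ran from -7.08 through -5.28 to -4.71 in 6 LAD mice and from -6.19 through -5.28 to -4.64 in 6 MLAD mice. The medians were alike and the means differed by 0.30 (95% interval -0.88 to 1.49, exact permutation p = 0.563). Sham values of B07 were -6.48, -6.90, -6.45 and -6.19, below or level with the lowest treated mouse.

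Assays B04, B08, A09, B03 and A07 differed by less than 0.20 on the log2 scale. B04 ran from -3.35 through -2.17 to -1.53 in 6 LAD mice and from -2.64 through -2.02 to -1.58 in 6 MLAD mice, a difference of 0.19 (95% interval -0.54 to 0.95, exact permutation p = 0.584). B08 ran from 0.79 through 1.87 to 2.10 in 6 LAD mice and from 0.92 through 1.44 to 3.03 in 6 MLAD mice. Its difference was also 0.19 (95% interval -0.83 to 1.15, exact permutation p = 0.665), though the MLAD median was the lower one. The 3 sham mice of B08 had 3.43, 3.38 and 3.47 and were above all 12 mice with occlusion. A09 had -1.22, -2.03, -1.58, -1.42 and -1.88 in LAD and -1.97, -1.16, -1.02, -1.61 and -1.80 in MLAD, a difference of 0.11 (95% interval -0.47 to 0.72, exact permutation p = 0.611). The groups were interleaved except for 2 treated mice above all untreated ones. B03 ran from -2.99 through -1.49 to -1.14 in 6 LAD mice, while MLAD mice had -1.67, -2.29, -1.76, -1.55 and -1.53. All treated values sat inside the untreated range, with a difference of 0.08 (95% interval -0.76 to 1.22, exact permutation p = 0.848). A07 ran from -4.83 through -4.41 to -4.00 in 7 LAD mice, and MLAD mice had -4.46, -4.39, -4.79, -4.24 and -4.04. The difference of 0.05 had the narrowest interval of the 18 assays not called (95% interval -0.34 to 0.45, exact permutation p = 0.763).

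Differences close to 0 or slightly negative were found for B09, A06, A12, B06 and A11. B09 ran from 1.04 through 2.08 to 2.81 in 6 LAD mice and from 1.36 through 2.0 to 2.59 in 7 MLAD mice, with a difference of -0.01 (95% interval -0.62 to 0.61, exact permutation p = 0.957). A06, like A08 complete in both groups, ran from -5.46 through -4.93 to -4.48 in LAD and from -5.70 through -5.05 to -3.86 in MLAD, a difference of -0.02 (95% interval -0.52 to 0.51, exact permutation p = 0.958). The treated mice enclosed the untreated ones, with 1 above and 1 below all of them. A12 ran from 6.39 through 7.10 to 7.77 in 6 LAD mice and from 6.28 through 6.95 to 8.40 in 6 MLAD mice. This was again a difference of -0.02 (95% interval -0.90 to 0.87, exact permutation p = 0.970) with treated mice on both sides. B06 had -1.27, -0.12, -1.85 and -0.91 in LAD and -0.33, -1.29, -1.63 and -0.98 in MLAD, a difference of -0.02 with an interval that holds changes of more than 2-fold both ways (95% interval -1.5 to 1.52, exact permutation p = 0.943). A11 ran from 2.05 through 2.91 to 3.65 in 6 LAD mice and from 2.24 through 2.86 to 2.99 in 6 MLAD mice. The treated mice lay inside the untreated range, and the difference was -0.12 (95% interval -0.82 to 0.58, exact permutation p = 0.693).

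The lowest differences belonged to A02 and A01, and neither passed the test. A02, the target with the lowest Ct, had 9.98, 10.12, 10.48 and 10.21 in LAD and 10.17, 9.54, 9.29 and 8.83 in MLAD. In it 3 of 4 treated mice were below every untreated mouse, and the sham mice, at 11.37, 11.25 and 11.64, were above both groups. The difference was -0.74 (95% interval -1.65 to 0.19), with an exact permutation p of 0.0857 and an adjusted p of 0.360. Limma over the 14 mice alone called it before adjustment and gave an adjusted p of 0.185.

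A01 was the most variable assay. LAD mice had -3.12, -2.62, -3.15 and -1.74, and MLAD mice ran from -6.06 through a median of -3.51 to -1.71. Of 7 treated mice, 6 were below every untreated mouse, and MLAD replicate 4 was above them all. Treated mice spanned the distance between the untreated mice and the sham mice, which had -5.31, -5.55 and -5.27. The means of -2.66 ± 0.66 (SD, n = 4) in LAD and -3.98 ± 1.5 (SD, n = 7) in MLAD differed by -1.33 (95% interval -3.17 to 0.43), with an exact permutation p of 0.109 and an adjusted p of 0.377. Without MLAD replicate 4 the difference was -1.70 with an exact permutation p of 0.00952. The reference Ct of A01 itself varied most, over 6.02 cycles among these 11 mice.

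A p that misses the threshold does not show that a transcript was unaltered. Of the 18 assays not called, 10 had an interval that reached a 2-fold change in at least 1 direction, and 8 had an interval inside 2-fold both ways. The SD within a group ranged from 0.18 to 1.5, with medians of 0.46 in LAD and 0.45 in MLAD.

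Relative expression has 2 terms, and they were read separately. The reference Ct listed with the target was higher in MLAD than in LAD in 21 of 21 assays, by 0.26 to 1.52 cycles with a median of 0.88. In 7 assays, 33.3%, its exact permutation p was under 0.05, and 0 passed adjustment, where the lowest adjusted p was 0.0833. The mean reference Ct of a mouse, taken over its assays, lay between 24.9 and 25.5 in the 7 LAD mice and between 25.9 and 26.3 in the 7 MLAD mice, without overlap. The means were 25.3 ± 0.203 (SD, n = 7) and 26.1 ± 0.141 (SD, n = 7), and that of sham was 26.4 ± 0.312 (SD, n = 5). The difference of 0.81 cycles (95% interval 0.63 to 1.02) had an exact permutation p of 0.000583, the smallest possible. The unit of this test is the sample number, and identical readings stand under different numbers. A number may average readings of different mice, and numbers may share mice. The p and the interval may therefore understate the spread between mice. Readings of the reference recur between assays, so the 21 reference differences are not independent of each other. The mean of a number was taken over the 9 to 20 assays it had, not centred per assay. It therefore also depends on which assays were present.

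Target Ct was higher in MLAD in 18 assays and lower in 3, with a median difference of 0.71 cycles. The exact permutation p was under 0.05 in 4 assays, 19.0%, which were A04, A11, A12 and B03, all with a higher target Ct in treated mice, and 0 passed adjustment, where the lowest adjusted p was 0.0909. In B03 target Ct rose by 1.24 cycles and reference Ct by 1.32, which left 0.08 as the difference in relative expression.

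In the 3 called assays the reference accounted arithmetically for the difference. In A08 the target Ct differed by -0.06 cycles (exact permutation p = 0.914) and the reference Ct by 0.87 (exact permutation p = 0.172). In A03 the target Ct differed by -0.00 (exact permutation p = 1) and the reference Ct by 1.03 (exact permutation p = 0.0159). In B02 the target Ct was higher by 0.45 (exact permutation p = 0.111), and the reference Ct by 1.52 (exact permutation p = 0.0317). None of the 3 had a lower target Ct in treated mice beyond the spread between mice. Whether the amount of RNA, the reverse transcription or the level of the reference transcript differed between the groups was not tested.

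The target readings of A03 and B02 also had the narrowest ranges of the panel. A03 lay between 30.6 and 31.6 in 10 mice, a range of 1.01 cycles, while the reference beside it covered 2.18 cycles. B02 lay between 30.3 and 31.6 in 9 mice, a range of 1.26, beside a reference range of 2.59. The median target range over the 21 assays was 2.97 cycles and that of the reference 2.46, and the target range was the smaller one in 7 assays. Ranges also widen with the number of mice, which was 8 to 14 per assay. A08 was unlike the other called assays, with a target range of 2.98 and a reference range of 3.87 over 14 mice. Its readings moved together within each group, so that the SD of relative expression, 0.36 in LAD and 0.18 in MLAD, was below those of target Ct, 1.22 and 0.861, and of reference Ct, 1.31 and 0.882.

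**Figure D3:**
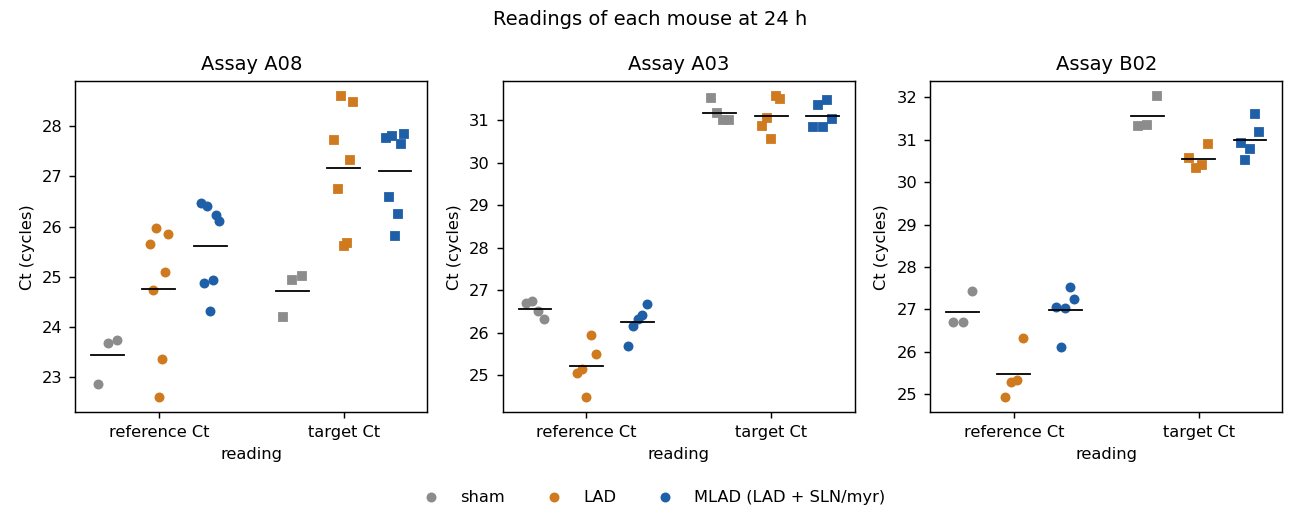
Reference Ct (circles) and target Ct (squares) of each mouse at 24 h in assays A08, A03 and B02, in cycles, with a black line at each group mean. The target Ct of A03 stays between 30.6 and 31.6 in LAD and MLAD mice while the reference Ct is on average 1.03 cycles higher in MLAD.

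**Figure D4:**
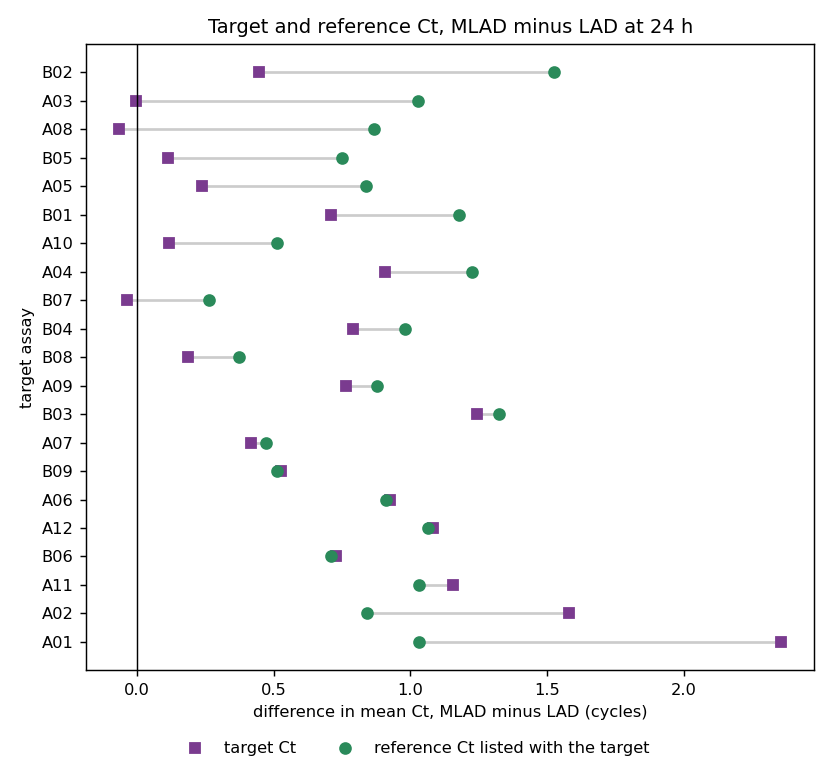
Difference in mean Ct, MLAD minus LAD at 24 h (cycles), for the target (squares) and for the reference listed with it (circles), with assays in order of the difference in relative expression. All 21 circles lie right of 0, and the distance between circle and square is the difference in relative expression.

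Among the 231 reference readings of the 14 mice, compared to 4 decimals, 154 were distinct. Of these, 62 were listed in more than 1 assay, 37 of them under more than 1 sample number and 0 under both groups, while 0 target readings recurred. A sample number may therefore not stand for the same mouse in every assay. Quantities that join assays by number (the mean reference Ct, the mean Ct of all targets, the block) carry this limit. Where an identical reading stands beside 2 targets, the difference of the target Cts is free of the reference. There were 21 pairs of assays that shared readings, and 3 of them held a called assay with at least 3 shared readings in each group. B03 Ct minus B02 Ct was -3.30 ± 0.606 (SD, n = 3) in LAD and -2.26 ± 0.122 (SD, n = 4) in MLAD, so that B02 was higher relative to B03 in treated mice by 1.04, with an exact permutation p of 0.0571, the smallest possible, and 0.171 after adjustment over the 3 pairs. For B04 Ct minus B02 Ct the values were -2.61 ± 0.405 (SD, n = 4) and -1.79 ± 0.494 (SD, n = 3), which differed by 0.82 with an exact permutation p of 0.171, adjusted to 0.257. For A08 Ct minus A06 Ct they were -2.62 ± 0.468 (SD, n = 3) and -3.12 ± 0.493 (SD, n = 3), a difference of -0.50 in the direction of more A08 in treated mice, with an exact permutation p of 0.3, also 0.3 when adjusted, where 0.1 was the smallest possible. No pair passed 0.05, and with so few shared readings none of the 3 could have.

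The difference at 24 h was set against that at 96 h, in other mice, to ask whether the effect of the treatment was already present at the earlier time. At 96 h 16 of 21 assays, 76.2%, had an exact permutation p under 0.05, 19 MLAD means were higher, and the median difference was 1.54, against 0.19 at 24 h. The difference at 96 h was above that at 24 h in 18 assays. In the limma test of the change between time points 12 assays had an adjusted p under 0.05. In 11 of them, A02, A06, A09, A10, A11, A12, B03, B06, B07, B08 and B09, the difference was higher at 96 h. The change was largest in B07, from 0.30 to 4.53, by 4.23 (SE 0.705, limma adjusted p = 1.8e-05). A12 moved from -0.02 to 3.06, by 3.07 (SE 0.600, limma adjusted p = 0.000117). A02 turned from -0.74 to 2.02, by 2.76 (SE 0.624, limma adjusted p = 0.00064). The 2 terms at 96 h were unlike in these assays. In B07 the reference Ct differed by 2.88 cycles, MLAD minus LAD, and the target Ct by -1.65. In A12 the reference Ct differed by -0.065 and the target Ct by -3.12, and in A02 by 0.47 and -1.55. Over the assays the reference Ct difference at 96 h ran from -2.63 in B06 to 3.07 in A05.

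Only B02, of the 12, changed the other way. Its 1.07 at 24 h stood against -0.23 (95% interval -1.11 to 0.69) at 96 h, a change of -1.30 (SE 0.476, limma adjusted p = 0.0177), and without LAD replicate 2 of 24 h the adjusted p was 0.0528. In the other called assays the change did not pass the test. A03 went from 1.03 to 0.57, by -0.46 (SE 0.366, limma adjusted p = 0.284). A08 went from 0.93 to 1.89 with an interval of -1.15 to 4.82 at 96 h, by 0.96 (SE 0.863, limma adjusted p = 0.302). With the replicate number as a block within each time point, the A08 change was 2.11 with a limma adjusted p of 0.00407. This block joins different mice that share only a number in the labels. With single mice left out, each of these changes passed in 1 of 28 settings. The limma adjusted p was 0.0358 for A08 without MLAD replicate 5 of 96 h (change 1.64). It was 0.0495 for A03 without MLAD replicate 1 of 96 h (change -0.73). The number of changes depended on the reference: with the mean Ct of all targets in its place 3 assays passed, A03, A05 and B02, all lower at 96 h. That scaling takes out any shift shared by the targets, and most MLAD means were higher at 96 h. It therefore cannot show a rise of the whole panel, and its values are relative to the other targets.

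**Figure D5:**
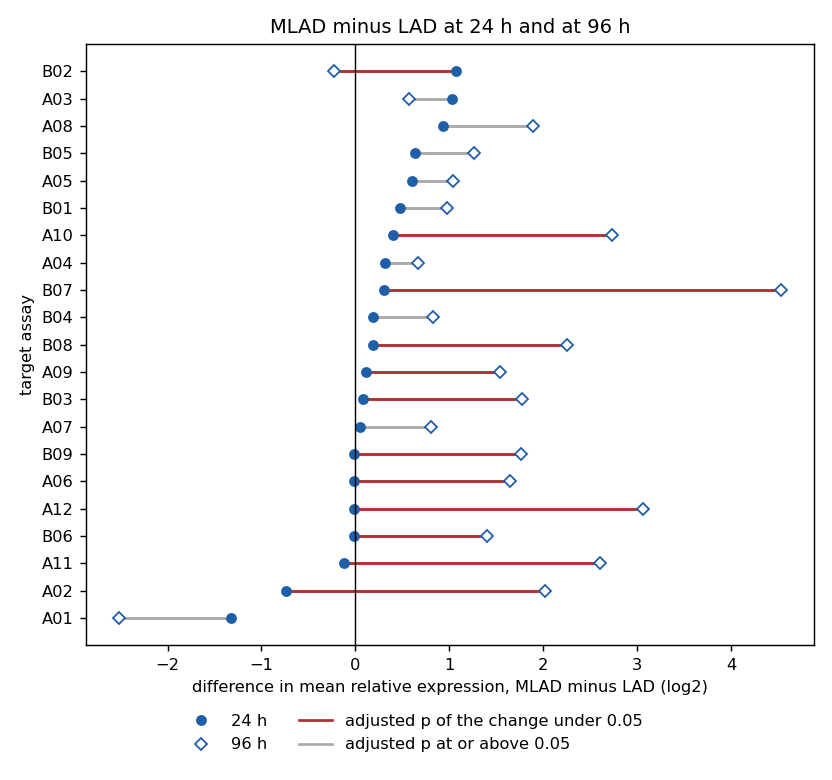
Difference in mean relative expression, MLAD minus LAD (log2), at 24 h (filled circles) and at 96 h (open diamonds), with red lines where the adjusted p of the change is under 0.05. Of the 12 red lines 11 run to the right from 24 h to 96 h and that of B02 runs to the left.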

How the data were processed

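The authors reverse transcribed RNA of each mouse, amplified it with SYBR green chemistry over 40 cycles and deposited the Ct values of every mouse as read, not normalized (unit: cycles). The authors' deposited fold changes against sham hold their own comparisons and were not used. Groups and replicate numbers came from the labels. Wells per Ct, threshold setting and the reason for empty combinations are not given in the sources used here.

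Relative expression was the reference Ct listed below a target minus the target Ct. MLAD and LAD were compared per assay by an exact permutation test of the difference in means (two-sided, p = 2 times the smaller tail) at the unadjusted threshold of 0.05 that the methods use, with Benjamini-Hochberg values over the 21 assays beside it. Intervals (95%) came from inverting the test. P-values measure the spread between mice. For the mean reference Ct the unit is the sample number, which may not stand for the same mouse in every assay. Limma over all 38 mice tested the change between 24 and 96 h. The permutation test and the limma fit were tested on simulated data. All 21 assays are described, called ones first and then by size. The members and lists were chosen with earlier results of these data known.

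Groups share replicate numbers in the labels although the mice differ. Deviations from the group means of same-numbered LAD and MLAD mice correlated with r of 0.347, 0.496, 0.169, 0.654, 0.198, 0.150 and 0.375 for numbers 1 to 7, all over 0.1, so the blocked values are printed where they change a call. These correlations do not show that same-numbered mice form pairs. Alternatives were adjustment, limma over all groups or with the block, sign flips, the linear scale, medians, raw Ct, the mean of all targets or of all reference readings of a mouse as reference, recurring readings left out, Ct above 35 left out, and each mouse left out. Limma over the 14 mice without the block was added after seeing the data. The mean of all targets used target Ct centred per assay, so that empty combinations do not shift it. The mean reference Ct was not centred, so empty combinations can shift it. Python 3.11.15, NumPy 2.4.6, SciPy 1.17.1, pandas 2.3.3, matplotlib 3.10.9, R 4.3.3 and limma 3.58.1 were used.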

Additional observations from a re-analysis of the deposited data

Results flagged for a closer look

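In A05 the LAD replicate 4 mouse stood apart from the other untreated mice, at -1.22 where the other 4 lay between -2.03 and -1.81, a gap of 0.731 of the range of the group. In the mean reference Ct, LAD replicate 1 stood apart at 24.9 where the other 6 lay between 25.3 and 25.5, a gap of 0.667 of the range. Its mean was over 13 assays, not centred per assay, and held the lowest reference reading of the 14 mice, 21.4 in A01. How much that reading set it apart was not tested. Over the 51 groups of values checked, chance flags about 1 in 20, or 2.55.

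The difference between MLAD and LAD was not the same at 96 h and at 24 h in 12 assays, by the limma test of the change with adjustment over the 21 assays. The change, 96 h minus 24 h on the log2 scale, was 2.76 in A02, 1.66 in A06, 1.42 in A09, 2.33 in A10, 2.72 in A11, 3.07 in A12, 1.69 in B03, 1.42 in B06, 4.23 in B07, 2.06 in B08 and 1.78 in B09, and -1.30 in B02.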

How the results depend on the processing

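The number of assays called, 3, was 1 after adjustment (A08), 4 with limma over all groups, 1 with its adjustment (A03), 5 with the replicate block in limma, 1 with sign flips over the pairs (A08; A03 and B02 stood at 1.15 and 1.04 with p = 0.125, the smallest exact p their pairs allow), 4 with limma over the 14 mice, 1 with the mean of all targets as reference (A03), 1 with the mean reference Ct of the mouse (A03), and 2 with recurring readings left out (A08 and B02, 20 assays tested, with A03 at 1.69 and an exact p that could not go below 0.667). It stayed at 3 on the linear scale and with medians, and lay between 3 and 4 with each mouse left out. There LAD replicate 4 or MLAD replicate 6 added A05 and MLAD replicate 4 added A01. Leaving out Ct above 35 removed no reading of the 14 mice, whose highest target Ct was 34.1, so it could not move the count. With raw Ct 4 assays were called, all lower in MLAD, and 0 of them shared with the main 3. That scaling moved the median over assays by -0.90 to -0.71, and the mean of all targets moved it by -0.16 to 0.03. The mean reference Ct per mouse kept its direction and call under its alternatives, all of which use the same sample numbers and carry their limit. The pairing by sign flips gave it 0.81, and leaving out mice gave 0.74 to 0.85.

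Some differences changed sign. They were -0.10 for B03 and 0.0925 for B09 with the replicate block, in limma and with sign flips alike. On the linear scale, as differences in relative quantity, they were 0.0331 for A06, 0.0722 for A12 and -0.0832 for B03. With raw Ct they were -0.91 for A04, -0.24 for A05, -0.42 for A07, -0.76 for A09, -0.12 for A10, -0.71 for B01, -0.45 for B02, -1.24 for B03, -0.79 for B04, -0.12 for B05 and -0.19 for B08. With the mean of all targets they were -0.21 for A04, -0.61 for B03, -0.13 for B04 and 0.0863 for B09, and with the mean reference Ct of the mouse -0.11 for A04, -0.48 for B03, 0.0580 for B06 and 0.21 for B09. B06 was 0.38 with recurring readings left out. With medians A09 was -0.0269, B03 -0.18, B07 -0.0033 and B08 -0.43. With single mice left out the ranges that crossed 0 were -0.19 to 0.12 for A06, -0.0335 to 0.15 for A07, -0.0082 to 0.23 for A09, -0.29 to 0.0330 for A11, -0.27 to 0.15 for A12, -0.15 to 0.22 for B03, -0.0199 to 0.35 for B04, -0.29 to 0.29 for B06, -0.0599 to 0.36 for B08 and -0.21 to 0.14 for B09. Of these assays B02 alone was among the 3 called, and A04 and B03 were called with raw Ct in the reversed direction.

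The count of changes between 96 and 24 h, 12, was 13 unadjusted, 14 with the replicate block, 8 with raw Ct, 3 with the mean of all targets, and 11 to 14 with a mouse left out. The mean of all targets takes out any shift shared by the targets, so a rise of the whole panel cannot pass with it. With raw Ct the change was 0.25 in A03 and 0.14 in B02, and with the mean of all targets -0.27 in A08. The causes were not tested. Assays read in 4 mice per group cannot give an exact p below 0.0286, and unknown wells per Ct leave the technical error unknown.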
